A study of Mus musculus with 6 samples.

Results

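Gene expression was compared between mouse embryonic stem cells given VD3 (1α,25-dihydroxyvitamin D3, the active hormone made from vitamin D) and untreated cells, which together make up 4 of the 6 RNA-seq libraries of the series. The groups were chosen by the agent that the labels give for each library: 2 libraries had VD3 at 1 µM for 5 days and 2 were untreated, for which no time is given. The remaining 2 libraries had VD3 at 1 µM together with MM-401 at 100 µM, which blocks the histone methyltransferase MLL1, for 5 days, and their values are given beside those of single genes. Cells of all groups came from blastocysts of the strain C57BL/6J, carried the genotype Mll1fl/fl; Cre-ER TM, and were kept with leukemia inhibitory factor on mouse embryonic fibroblast feeder cells. The medium is described as having 15% fetal calf serum or 20% KSR without saying which library had which, so a difference in medium cannot be told apart from the treatment. Neither the number of lines or clones nor a loss of Mll1 is stated for any group, and Kmt2a, the gene of MLL1, stood at 14.9 FPKM in untreated cells, 11.6 with VD3 and 17.0 with both agents.

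Vitamin D acts through the vitamin D receptor, a nuclear receptor that pairs with a retinoid X receptor (RXR) and binds spaced repeats of a short DNA motif near its target genes. Coactivators or corepressors join this pair and raise or reduce transcription. Cyp24a1, whose enzyme breaks the hormone down, is the classical target gene.

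The deposited tables pool the libraries of a group into 1 column, so the differences lack a check against replicates and no p-value is given. The untreated column was matched to its group through a part of its name, as was that of the cells with both agents, and another meaning of the untreated column would change every comparison. A level is given as FPKM (fragments scaled to transcript length), and how the authors scaled it between pools is not given. It does not appear to be divided by the totals of estimated counts given below. Id1, for example, had 45.5 and 119 FPKM from 2362 and 6168 unscaled counts in the untreated and VD3 pools, about the same ratio. A difference is the log2 ratio of FPKM + 1, VD3 over untreated, which understates the difference of genes with low FPKM. A gene counted as measured with at least 5 FPKM and 100 estimated counts in the higher pool. It was called higher or lower where the difference reached 2-fold and the authors' intervals of FPKM, whose level is not given, did not overlap. These intervals come from the authors' model of each pool, and the combined standard deviation that their count variance gives for the log2 ratio had a median of 0.36.

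The estimated counts of the pools summed to 62284598 (untreated), 73636342 (VD3) and 73499639 (VD3 plus MM-401), and the median gene, as used below, is the median over the measured genes. Of 10584 measured genes, 67 were higher with VD3 (0.633%) and 416 were lower (3.93%), or 4.56% in either direction. The median gene was itself 0.37 higher with VD3 by FPKM, and 0.14 higher in estimated counts scaled to the total. By FPKM the middle 50% of genes lay between -0.06 and 0.62. With differences centred on the median gene 12 genes were higher (0.113%) and 676 lower (6.39%), and on the scale of estimated counts scaled to the total, with intervals of 2 standard deviations either side, 21 were higher and 1019 lower. More genes were therefore lower than higher on each of these scales, while the number of higher genes changed most between them. The median higher gene stood at 9.98 FPKM in untreated cells, 28.0 with VD3 and 21.2 with both agents. The median lower gene stood at 16.7, 4.24 and 5.93 FPKM in the same order. Both treated pools share the untreated pool as their reference. Protein-coding genes made up 52 of the higher and 342 of the lower calls (0.592% and 3.89% of measured protein-coding genes), and processed pseudogenes 7 and 34.

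**Figure D1:**
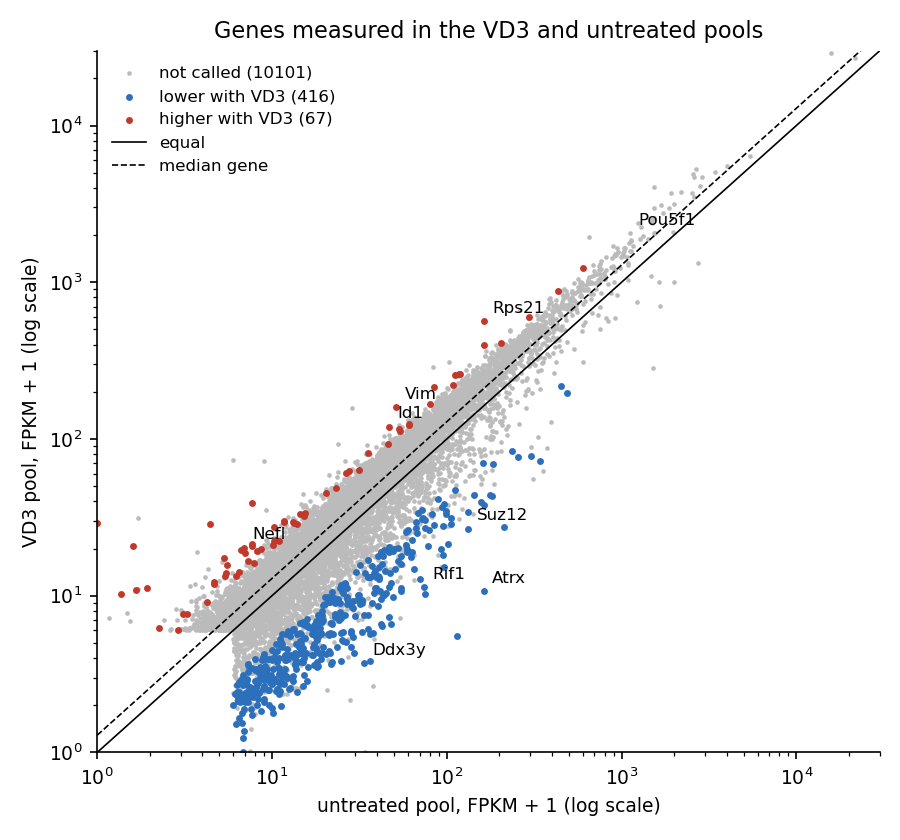
FPKM + 1 in the VD3 pool (vertical, log scale) against the untreated pool (horizontal, log scale), 1 point per measured gene, with genes called higher in red and lower in blue. The dashed line of the median gene lies above the line of equal values, and 416 genes are marked lower against 67 higher.

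No gene of the hormone's own pathway was called, though a few differed by more than 2-fold with overlapping intervals. Of all measured genes 4.56% were called. The pathway's lists held only 2 (receptor and partners), 3 (metabolism and uptake), 12 (coregulators) and 9 (targets) measured genes. An absence of calls is close to that share. Vdr (chromosome 15, 97854425 to 97910630, GRCm38), the receptor gene, was at 0.556 FPKM in untreated cells, 0.701 with VD3 and 0.370 with both agents, and did not reach the level of a measured gene in any pool. Cyp24a1 (chromosome 2, 170482708 to 170497145) was at 0.0662, 0.129 and 0.0719 FPKM, from 16 and 31 estimated counts in the untreated and VD3 pools. Both genes thus stayed near the lower end of the measurement, and their intervals overlapped. Among the receptor's partners, Rxra was at 6.81, 14.9 and 7.08 FPKM, with intervals of 1.78 to 11.9 and 6.02 to 23.8 in the untreated and VD3 pools. Rxrb was at 27.5, 33.1 and 33.8 FPKM and Rxrg at 0.199, 0.781 and 0.689 FPKM. No member of this list was called.

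None of the 12 measured coregulators of the receptor was called either (4.56% of all measured genes were). Their differences ran from -1.04 to 0.52 with a median of -0.05, against 0.37 for all measured genes. Ncoa2, a coactivator named after its value was seen, had the lowest difference, at 14.5, 6.53 and 7.01 FPKM. Ncor1, a corepressor, was at 179, 112 and 117 FPKM, and the coactivator Ncoa3 at 85.6, 88.5 and 62.8 FPKM. Of 25 listed target genes of the receptor in other tissues 9 were measured, none was called, and their median difference was 0.19, with a range from -1.09 to 0.66. The lowest was that of Ccnc, which encodes cyclin C and is named after its value was seen. Spp1, which encodes osteopontin, was at 435 FPKM in untreated cells, 424 with VD3 and 499.8 with both agents. Gadd45a, a growth arrest gene, was at 118, 133 and 238 FPKM, and Txnip, an inhibitor of thioredoxin, at 452, 515 and 447 FPKM.

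Promoters of the called genes were searched for some exact forms of the receptor's binding motif. The RefSeq promoter table (250 bases before to 50 after a start) held 18048 of the named genes, 7131 of them measured, 36 higher and 267 lower. Both strands were searched for 7 motifs: the 5 spaced repeats AGGTCANNNAGGTCA, GGGTCANNNGGGTCA, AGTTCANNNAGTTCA, AGGTCANNNAGTTCA and AGTTCANNNAGGTCA, and the single hexamers AGGTCA and AGTTCA, which the repeats contain. The 5 repeats together were in 3 of all promoters, 1 of them of a measured gene and none of a called gene. With so few matches, their absence from called genes carries no information. The hexamer AGGTCA was in 16.9% of all promoters, in 14.5% of those of measured genes, in 3 of 36 higher (8.33%) and in 36 of 267 lower genes (13.5%). The hexamer AGTTCA was in 14.7% of all, 11.2% of measured, 8.33% of higher and 10.5% of lower genes. These matches describe the letters of a short window only.

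Genes that were higher with VD3 included intermediate filament, BMP pathway and calcium-binding genes. Vim (chromosome 2, 13573927 to 13582826) encodes vimentin, a filament protein of mesenchymal and many cultured cells. Its level was 50.4 FPKM without treatment (26.6 to 74.2 by the authors), 159 with VD3 (88.5 to 230) and 165 with both agents, a difference of 1.64. Nefl (chromosome 14, 68083863 to 68089095), the light neurofilament subunit, was at 5.94, 19.3 and 14.4 FPKM (1.55), and Nefh, the heavy subunit, at 5.24, 12.4 and 10.2 FPKM (1.10). The untreated pool was the lowest for all 3 genes, and its intervals lay apart from those of VD3. Of the 16 measured intermediate filament genes 3 were higher (0.633% of all measured genes were) and none lower. Vim is also a marker of the feeder fibroblasts, whose markers are given below; in bulk samples a different share of cells of a type and a different amount of RNA per cell cannot be told apart. The differences of the intermediate filament list ran from 0.37 to 1.64, with 15 members above the median gene and a median of 0.72. After the adjustment for GC content and length described below, the list's median was 0.20. Nefh was then at 0.63, while Vim (1.10) and Nefl (1.31) stayed above 2-fold.

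Bmp4 (chromosome 14, 46383520 to 46390669), a secreted BMP ligand, was at 10.8, 28.9 and 21.4 FPKM in untreated, VD3 and VD3 plus MM-401 cells, a difference of 1.34. Id1 (chromosome 2, 152736251 to 152737410), a transcriptional inhibitor and known BMP target, was at 45.5, 119 and 128 FPKM (1.36). The BMP receptor gene Bmpr1a went the other way, at 27.4, 8.13 and 13.3 FPKM (-1.64, or -0.72 adjusted for GC content and length). Adjusted in the same way, Bmp4 was at 0.81 and Id1 at 0.73, so all 3 genes were then under 2-fold. Over the 9 measured genes of BMP ligands, targets and Id genes, 2 were higher and 1 was lower (0.633% and 3.93% of all measured genes were). The median of the 9 was 0.01. Relative to the median gene Id1 and Bmp4 were 1.00 and 0.98 higher, and neither was called after centring, and nor were Vim and S100a6, while Nefl was.

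S100a6, a small calcium-binding protein, was at 83.8, 213 and 287 FPKM (1.33) and Anxa2, which binds membranes in the presence of calcium, at 34.5, 79.9 and 53.9 FPKM (1.19). They were the 2 higher genes of 13 measured S100 and annexin genes (0.633% of all measured genes were higher), and 10 of the 13 lay above the median gene. Stmn2, a neuronal microtubule regulator, was at 110, 256 and 456 FPKM (1.21). Pla2g7 (chromosome 17, 43568098 to 43612201), a secreted phospholipase that acts on platelet-activating factor, was at 6.65, 20.3 and 14.9 FPKM (1.48). Fkbp6, a germ cell co-chaperone of the piRNA pathway, was at 6.65, 19.7 and 9.63 FPKM (1.44), and the homeobox gene Nkx6-3 at 10.7, 28.6 and 35.9 FPKM (1.34). Other higher genes by the same rule were Apobec2, Synpo2l, Acsbg2, Sdcbp2 and Eid1, with differences from 1.12 to 1.39. Adjusted for GC content and length, S100a6 (0.70), Anxa2 (0.59), Fkbp6 (0.85) and Nkx6-3 (0.78) were under 2-fold higher. Stmn2 (1.05) and Pla2g7 (1.15) stayed above 2-fold.

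Rps21 (chromosome 2, 180257377 to 180258445), a protein of the small ribosomal subunit, was at 163, 565 and 511 FPKM (1.79). Ribosomal protein genes have processed copies elsewhere in the genome, and counts could be split among them, so its value is uncertain. Of 71 measured cytosolic ribosomal protein genes 2 were higher (Rps21 and Rpl39) and 1 was lower (Rps13), against 0.633% and 3.93% of all measured genes. The list's median difference was 0.54, and 48 members lay above the median gene.

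**Figure D2:**
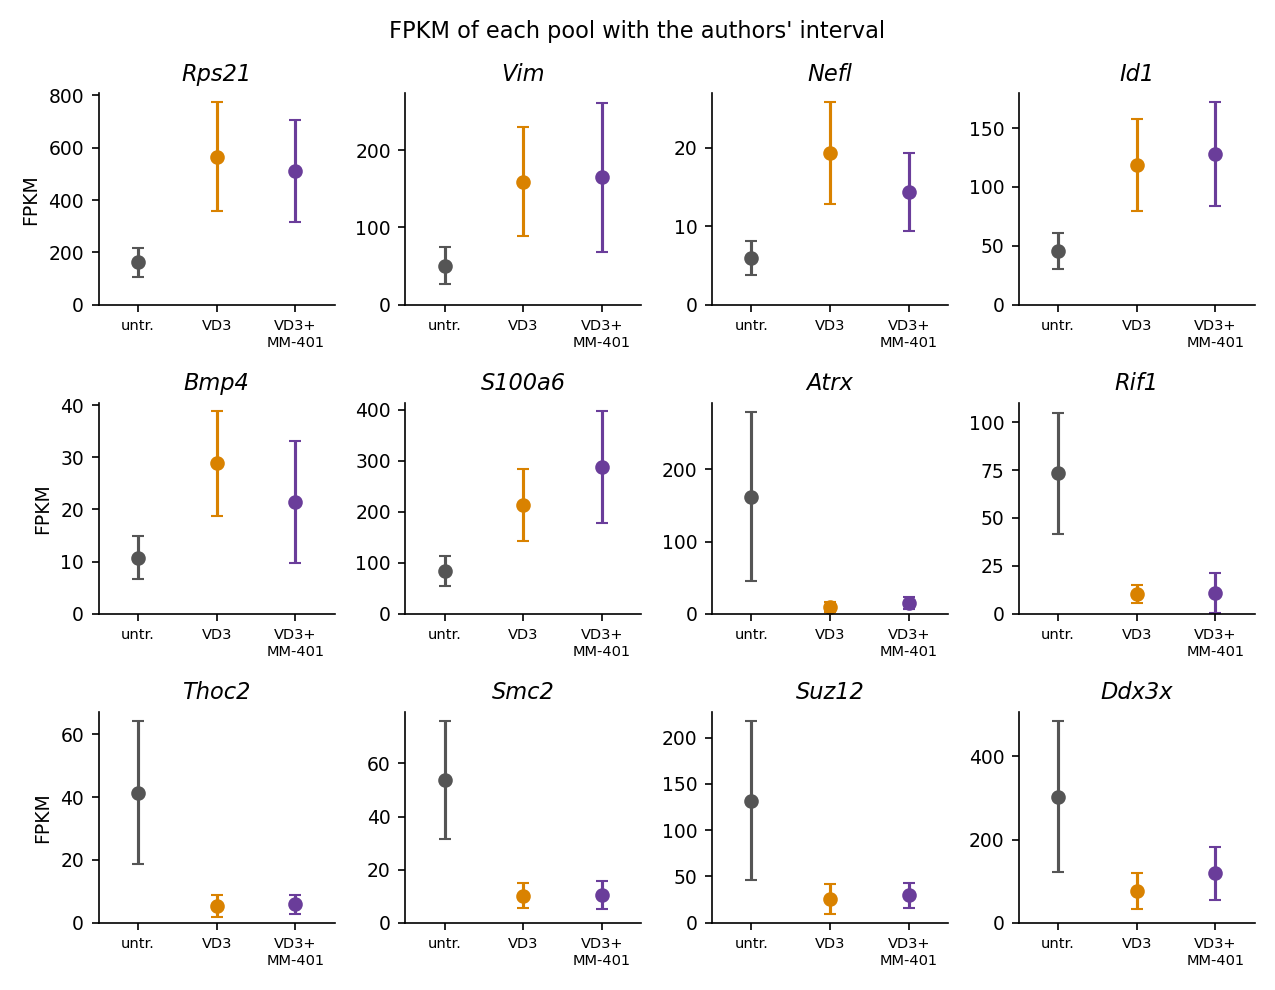
FPKM (vertical, linear, starting at 0) of 12 called genes in each of the 3 pools, with bars for the authors' interval. In the first 6 panels, read row by row, the untreated pool is lowest, for example Vim at 50.4 against 159 FPKM. In the last 6 it is highest, for example Atrx at 162 against 9.65 FPKM.

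Most higher calls were under 2-fold in estimated counts once these were scaled to the total. Of the 67 higher genes 22 were also 2-fold higher in estimated counts scaled to the total, and 7 were lower in counts, whereas 411 of the 416 lower genes were 2-fold lower in counts as well. The median gene was 0.37 higher by FPKM and 0.14 by scaled counts, so genes just above 2-fold by FPKM can fall below it by scaled count. Sod1, for example, had differences of 1.04 and 0.79. Its unscaled counts, 13444 and 27608, had about the same ratio as its FPKM, 429 and 881. For such a gene the count difference was smaller only after the scaling to the total. Whether the deposited counts were already scaled between pools is not given. Tnrc6b, which encodes a partner of Argonaute proteins, was at 3.43, 27.6 and 2.499 FPKM, but its estimated counts were 4093, 2604 and 2978. The count difference was -0.88 where the FPKM difference was 2.69. Arhgef17 was at 5.65, 18.6 and 6.15 FPKM with a count difference of 0.13. Among lower genes, Rps13 was at 19.3, 3.26 and 5.16 FPKM with counts of 299 and 360 in the untreated and VD3 pools, and Dennd6b at 34.3, 5.09 and 9.17 FPKM with counts of 860 and 870. For these 4 genes the FPKM difference is uncertain. Over all measured genes 101 (0.954%) had FPKM and count differences at least 1 apart after centring, 11 of them called higher and 13 called lower.

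**Figure D3:**
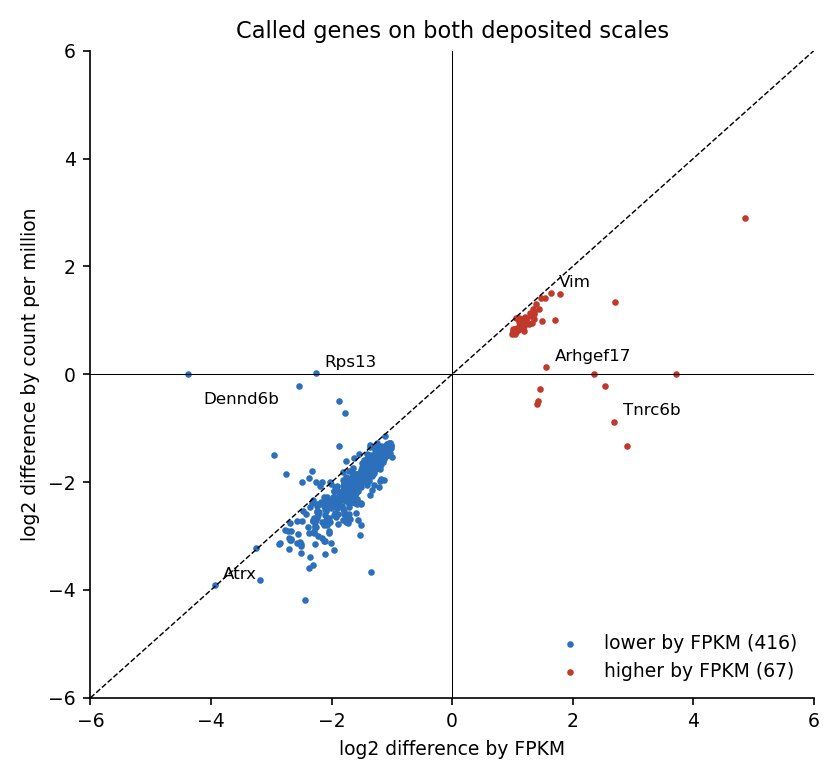
Difference in counts scaled to the total (vertical, log2) against difference in FPKM (horizontal, log2) for each called gene, with a dashed line of equal values. Most lower genes lie near the line, with 411 of 416 at least 2-fold lower in counts, while Tnrc6b and Arhgef17 are higher by FPKM and near or below 0 by count.

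Signalling lists lay on both sides of the median gene, mostly without calls. Over all measured genes 4.56% were called, so an absence of calls among 11 or 19 genes is close to that share. Of the 19 measured feedback targets of FGF and ERK signalling 17 lay above the median gene, none was called, and their median difference was 0.69 against 0.37 for all genes. Dusp6, a phosphatase that limits ERK, was at 85.5, 149 and 133 FPKM. The 6 measured targets of Wnt signalling had a median of 0.99, with Cdx1, a homeobox gene, called higher at 5.43, 13.1 and 17.9 FPKM. Myc, which is on the lists of Wnt and of FGF and ERK targets, was at 43.6, 87.0 and 62.6 FPKM with overlapping intervals. The 11 measured genes of the LIF and STAT3 pathway, which keeps these cells pluripotent in culture, had a median of 0.59 and no call. Of 13 measured genes of the Nodal pathway 2 lay above the median gene, with a median of -0.03, and Skil, which restrains SMAD proteins, was lower at 39.4, 12.3 and 18.4 FPKM (-1.60). The BMP list above also lay below the median gene, with 3 of 9 members above it. After the adjustment for GC content and length described below, the list medians were closer together. They were 0.23 for FGF and ERK targets, 0.52 for Wnt targets, 0.18 for LIF and STAT3, -0.11 for Nodal and -0.30 for BMP.

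Genes of energy metabolism and protein turnover lay mostly above the median gene, by less than 2-fold. Over all measured genes 0.633% were called higher and 4.56% in either direction. Of 62 measured nuclear-encoded genes of the respiratory chain 56 lay above the median gene, with differences from -0.30 to 0.93 and a median of 0.66, and none was called. Atp5b, the catalytic subunit of ATP synthase, was at 1991 FPKM in untreated cells, 3178 with VD3 and 4872 with both agents. Of 50 mitochondrial ribosomal proteins 42 lay above the median gene (median 0.66), and Mrpl20 was called at 204, 410.0 and 531 FPKM. Of 30 proteasome subunits 26 lay above it (median 0.68), and the catalytic subunit Psmb6 was called at 295, 597 and 668 FPKM. After the adjustment for GC content and length described below, the medians of the 3 lists were 0.14, 0.18 and 0.27. Sod1, which removes superoxide, was at 429, 881 and 1189 FPKM and Mt1, a metal-binding protein, at 602, 1229.7 and 1789 FPKM. They were the 2 called members of 29 measured antioxidant genes, whose median was 0.43 before and -0.02 after that adjustment.

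**Figure D4:**
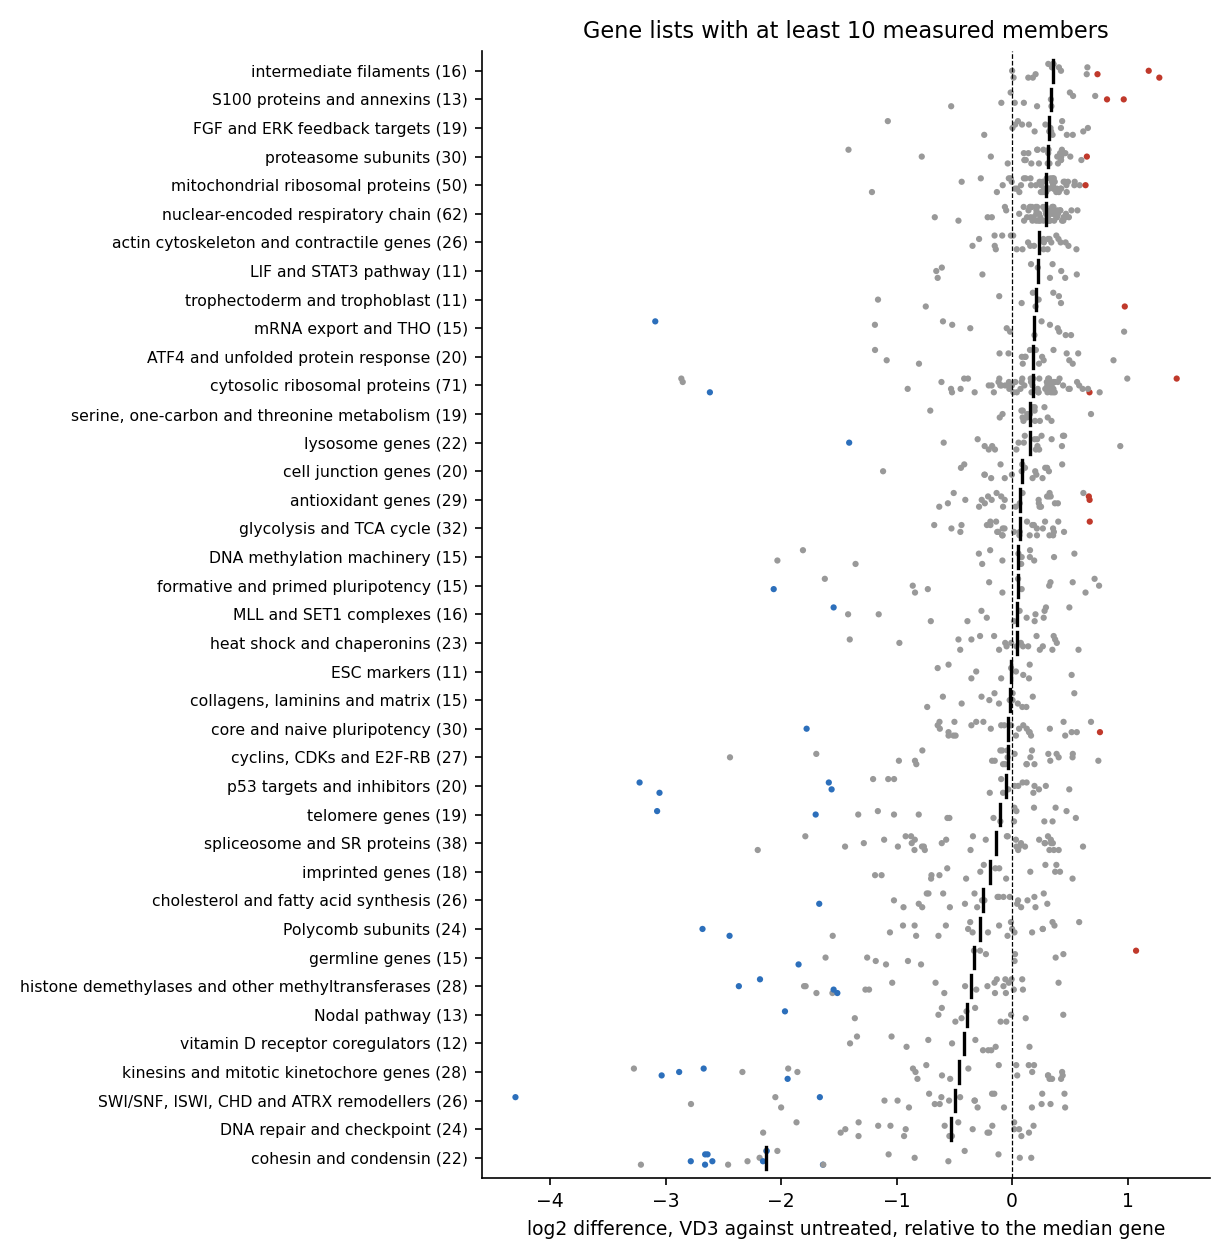
Difference relative to the median gene (horizontal, log2) of each measured member of the gene lists with at least 10 measured members, 1 row per list with the number measured in brackets, called members in red (higher) and blue (lower) and a black bar at the list's median. The cohesin and condensin list lies apart at a median of -2.13, while the other medians lie between -0.53 and 0.36.

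Most of the larger differences were downward. Atrx (chromosome X, 105797615 to 105929403), a chromatin remodeller that deposits histone H3.3 with Daxx, was at 162 FPKM in untreated cells (44.8 to 279), 9.65 with VD3 (2.95 to 16.3) and 14.8 with both agents. Its difference was -3.94, from 39132 and 3008 estimated counts. Washc4 (chromosome 10, 83543752 to 83596473), a subunit of the WASH complex of endosomal sorting, was at 35.5, 2.85 and 3.71 FPKM (-3.25). Ddx3y (chromosome Y, 1260771 to 1286629), a Y-linked RNA helicase, was at 32.7, 2.70 and 2.66 FPKM (-3.19). Both treated pools lay far below the untreated pool for each of these genes. Daxx, the partner of Atrx, was at 63.2, 112 and 117 FPKM, a difference of 0.82 with overlapping intervals; it is named here after its value was seen.

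Stretches of coding sequence of 5 protein-coding genes, from among the largest lower and higher differences, are shown with their base composition. They were taken among called genes of a single locus with at least 500 counts that were 2-fold different on both scales, and were chosen after the values were seen. Each is 120 bases from the middle of the longest coding exon, read 5′ to 3′ on the gene's strand from GENCODE vM21 transcripts (GRCm38), with G and C in capitals. Rps21 had no coding exon of that length.
Atrx, lower, exon 9, chrX:105876007-105876126, minus strand: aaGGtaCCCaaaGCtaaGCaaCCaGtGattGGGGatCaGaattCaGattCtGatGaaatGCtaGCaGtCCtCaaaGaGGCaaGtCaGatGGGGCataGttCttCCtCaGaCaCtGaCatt
Washc4, lower, exon 31, chr10:83591025-83591144, plus strand: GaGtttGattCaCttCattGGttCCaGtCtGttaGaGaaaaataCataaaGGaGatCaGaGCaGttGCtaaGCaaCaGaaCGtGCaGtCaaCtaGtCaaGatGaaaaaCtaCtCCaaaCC
Ddx3y, lower, exon 13, chrY:1265059-1265178, minus strand: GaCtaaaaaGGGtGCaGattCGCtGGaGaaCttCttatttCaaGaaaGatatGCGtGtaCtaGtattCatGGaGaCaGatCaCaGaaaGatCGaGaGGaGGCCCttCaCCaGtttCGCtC
Vim, higher, exon 1, chr2:13574653-13574772, plus strand: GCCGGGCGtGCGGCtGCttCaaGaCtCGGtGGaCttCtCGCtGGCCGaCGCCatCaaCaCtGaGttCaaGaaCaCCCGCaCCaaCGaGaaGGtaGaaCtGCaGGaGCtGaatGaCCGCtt
Pla2g7, higher, exon 10, chr17:43607260-43607379, plus strand: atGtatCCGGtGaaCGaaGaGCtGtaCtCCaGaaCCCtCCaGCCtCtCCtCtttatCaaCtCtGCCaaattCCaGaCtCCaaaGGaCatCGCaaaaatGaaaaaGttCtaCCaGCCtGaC
The windows of Atrx, Washc4 and Ddx3y held 45.0%, 39.2% and 44.2% G and C, and those of Vim and Pla2g7 held 59.2% and 46.7%, so that of Pla2g7 was near those of Atrx and Ddx3y. Over the whole transcript the 3 lower genes had 39.5%, 39.8% and 36.1% and the 2 higher genes 53.9% and 48.2%.

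Most called genes differed in composition in the same direction. The 341 lower protein-coding genes with a transcript in GENCODE had a median of 40.7% G and C and of 4663 bases of transcript, and 338 of them lay below the median GC content of all measured genes. The 52 higher genes had 54.3% and 1720 bases, 8 of them lying below that median (Nefl and Pla2g7 among them), against 50.6% and 2892 bases for all 8783 measured protein-coding genes. The base at the last position of the codon, where most changes leave the protein the same, was G or C in 39.9% of codons of the median lower gene, 69.4% of the median higher gene and 60.1% of the median gene overall. Promoters did not follow the transcripts, with a median GC content of 62.3% for lower, 59.2% for higher and 61.3% for all measured genes.

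When measured genes were split into 5 equal groups by GC content, the group with the lowest content (median 42.3%) held 320 lower and 0 higher genes and had a median difference of -0.62. In the group with the highest content (58.3%) 1 gene was lower, 19 were higher and the median was 0.51. Length went with the difference within the GC-poor genes. Among the GC-poorest of 3 equal groups, 22 of 629 genes of the shortest length group were lower (3.50%) and 227 of 1322 of the longest (17.2%). The level of a gene also went with the calls: 122 of 1822 genes with a mean of 5 to 10 FPKM were lower (6.70%), against 11 of 1741 above 100 FPKM (0.632%).

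**Figure D5:**
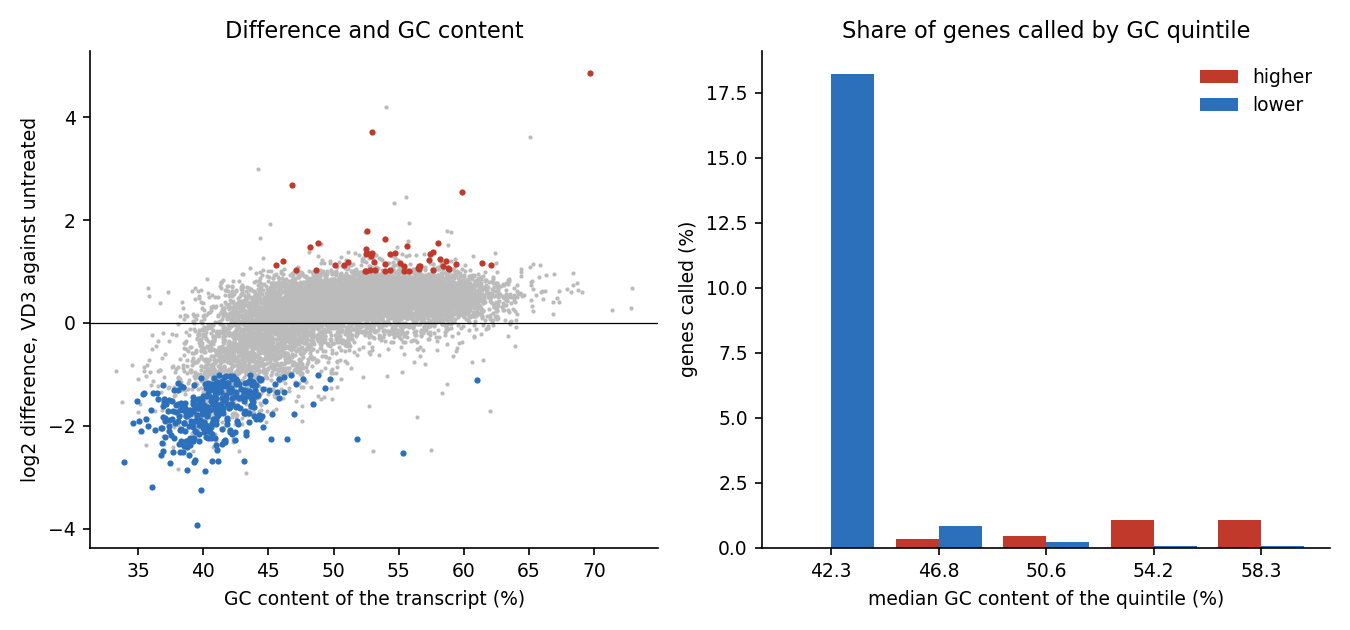
Left, difference with VD3 (vertical, log2) against the GC content of the transcript (horizontal, percent) for each measured protein-coding gene, with called genes in red (higher) and blue (lower). Right, the share of genes called in 5 equal groups ordered by GC content, where lower calls reach 18.2% in the group with a median of 42.3% and 0.0569% in the group with a median of 58.3%.

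Differences were therefore also adjusted for GC content and transcript length across protein-coding genes, as the residual of a cubic fit. After it, 100 of the lower and 10 of the higher genes still differed by at least 2-fold in their direction. Adjusted differences were -2.40 for Atrx, -2.04 for Washc4, -1.17 for Ddx3y, 1.10 for Vim, 1.31 for Nefl and 1.15 for Pla2g7. The adjustment brought Arhgap5, with 33.9% G and C, from -2.71 to 0.40. Genes that were called, 2-fold by count scaled to the total and 2-fold after adjustment numbered 96 lower and 5 higher. The 5, picked out after their values were seen, were Vim, Nefl, Pla2g7, Rps21 and Gm21887, the last of them listed at 0 in untreated cells, at 28.0 FPKM with VD3 and at 0 with both agents. What composition contributes to the differences beyond this fit was not tested.

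The cohesin and condensin genes, whose ring-shaped complexes hold sister chromatids together and fold chromosomes, were lower more often than any other list of at least 10 measured members. Of 22 measured members 8 were lower (3.93% of all measured genes were) and none was higher. Before the intervals were considered 15 were 2-fold lower (7.86% of all measured genes were). The list's median difference was -1.76, or -2.13 relative to the median gene. Smc2, a condensin core subunit, was at 53.8, 10.2 and 10.5 FPKM (-2.29). Smc5, of the related SMC5/6 repair complex, was at 28.0, 4.42 and 6.33 FPKM (-2.42). The cohesin loader Nipbl was at 18.04, 2.94 and 3.72 FPKM (-2.27), and the cohesin acetyltransferase Esco1 at 11.7, 1.58 and 1.49 FPKM (-2.29). The treated pools lay together and well below the untreated pool for each of these genes. After adjustment the list's median was -0.87; its median GC content was 42.1%, and in the GC-poorest group of genes above 18.2% were lower.

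Several proteins that act on histones and chromatin were lower, although their lists held mostly uncalled genes. Suz12 (chromosome 11, 79993106 to 80034123), a core subunit of Polycomb repressive complex 2, was at 132, 25.7 and 29.6 FPKM (-2.32), and Mtf2, which brings that complex to DNA, at 181, 42.1 and 54.4 FPKM (-2.08). They were the 2 called of 24 measured Polycomb genes, whose median was 0.09. Of 26 measured remodellers 2 were lower, Atrx and Smarca1, an ISWI ATPase at 7.16, 2.32 and 2.42 FPKM (-1.30), with a median of -0.13. Of 28 histone demethylases and other methyltransferases 4 were lower, with a median of 0.01, among them Jmjd1c, a demethylase-related protein at 61.0, 16.6 and 18.3 FPKM (-1.82). Of 16 measured genes of the MLL and SET1 complexes only Kdm6a, a demethylase of histone H3 lysine 27, was lower, at 14.0, 5.64 and 7.72 FPKM (-1.18). Over all measured genes 3.93% were lower. For lists of this size the counts of the Polycomb, remodeller and MLL and SET1 lists were not far above that share. Adjusted differences were -1.60 for Suz12 and -1.19 for Jmjd1c, and were under 2-fold for Mtf2 (-0.69), Smarca1 (-0.47) and Kdm6a (-0.47).

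Genes of the mitotic spindle and of telomeres gave single large differences in the same way, where 3.93% of all measured genes were lower. Of 28 measured kinesin and kinetochore genes 4 were lower, 8 were 2-fold lower and none was higher, with a median of -0.09. Kif20b, a kinesin of cell division, was at 41.2, 5.64 and 5.57 FPKM (-2.67), Knl1, a kinetochore scaffold, at 12.9, 1.42 and 1.30 FPKM (-2.52), and Kif11, which separates the spindle poles, at 58.0, 18.8 and 23.9 FPKM (-1.58). Rif1 (chromosome 2, 52072832 to 52122383), which acts in replication timing and at DNA breaks, was at 73.4, 10.4 and 10.9 FPKM (-2.71). Terf1, a telomere-binding protein, was at 95.7, 37.3 and 63.6 FPKM (-1.34). These were the 2 lower genes of 19 measured telomere genes. Adjusted differences were -1.39 for Kif20b and -1.21 for Rif1, and were under 2-fold for Kif11 (-0.91), Terf1 (-0.86) and Knl1 (-0.66). None of the 24 measured DNA repair and checkpoint genes and none of the 27 cyclin, CDK and E2F genes was called. Of all measured genes 4.56% were called and 7.86% were 2-fold lower. Among the repair genes 4 were 2-fold lower, 0 were 2-fold higher and 6 lay above the median gene. Their median was -0.17, or -0.09 after adjustment. Among the cyclin, CDK and E2F genes 2 were 2-fold lower and 1 was 2-fold higher, with a median of 0.33.

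Of 20 measured p53 targets and inhibitors 4 were lower (3.93% of all measured genes were) and none higher, with a median of 0.31. Mdm4, an inhibitor of p53, was at 35.5, 4.67 and 11.5 FPKM (-2.69), and Trp53inp1, a p53 target, at 73.9, 9.31 and 17.7 FPKM (-2.86). Ccng1, which encodes a cyclin induced by p53, was at 110, 46.6 and 85.5 FPKM (-1.22), and the receptor gene Eda2r at 10.05, 3.82 and 4.81 FPKM (-1.20). The lower genes thus included both an inhibitor and targets. Adjusted differences were -2.54 for Mdm4 and -1.46 for Trp53inp1, and were under 2-fold for Ccng1 (-0.45) and Eda2r (-0.31). Further large differences were those of Thoc2, of the THO complex of mRNA export (41.5, 5.43 and 5.82 FPKM), Kif5b, a transport kinesin (96.0, 14.2 and 18.9 FPKM), and Trpm7, an ion channel with a kinase domain (47.1, 5.55 and 7.99 FPKM). Of these Thoc2 was under 2-fold lower after adjustment (-0.83).

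All 4 measured Y-linked genes were lower (3.93% of all measured genes were): Ddx3y, Uty, Eif2s3y and Kdm5d. Uty, the Y-linked relative of Kdm6a, was at 14.0, 2.75 and 2.61 FPKM (-2.001), Eif2s3y, a translation initiation subunit, at 83.7, 27.2 and 44.8 FPKM (-1.59), and Kdm5d, a histone demethylase, at 8.98, 3.50 and 3.70 FPKM (-1.15). All 4 remained detected in both treated pools. Of their 7 X-linked partners 2 were lower, Kdm6a and Ddx3x (chromosome X, 13280970 to 13294052), a helicase at 304, 76.9 and 119 FPKM (-1.97). The Y-linked genes had a median GC content of 37.8% and their partners 42.5%, and adjustment took the medians from -1.79 to -0.69 and from -0.995 to -0.106. The sign of Uty changed with it, to 0.17, and Eif2s3y (-0.84), Kdm5d (-0.53) and Kdm6a (-0.47) were then under 2-fold lower. Over whole chromosomes 31 of 271 measured protein-coding X-linked genes were lower (11.4%), against 1.99% to 7.42% on single autosomes. Measured X-linked genes had a median of 46.5% G and C, below that of every autosome, and an adjusted median difference of -0.02.

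No measured marker of the stem cell state was called, where 4.56% of all measured genes were. For 11 genes an absence of calls is close to that share. Of 12 ESC markers 11 were measured, with a median difference of 0.36, equal to that of all measured genes within 0.01. Pou5f1, which encodes Oct4, was at 1114, 2053 and 1832 FPKM, Sox2 at 157, 163 and 195 FPKM, and Nanog at 117, 141 and 155 FPKM. Of 30 measured genes of core and naive pluripotency 1 was higher and 1 lower (0.633% and 3.93% of all measured genes were). Lin28a (chromosome 4, 134003330 to 134018841), an RNA-binding protein that blocks let-7 maturation, was at 117, 257 and 186 FPKM (1.13), whereas its paralog Lin28b (chromosome 10, 45376620 to 45486395), on the list of formative and primed genes, was at 13.7, 3.54 and 7.08 FPKM (-1.70). Zfp281, a zinc finger regulator of pluripotency, was the lower gene of the first list, at 39.9, 14.3 and 21.2 FPKM (-1.41). After adjustment Lin28a was at 0.82, Lin28b at -0.68 and Zfp281 at -0.88 on the log2 scale.

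Lineage lists held few measured genes. Over all measured genes 0.633% were higher and 3.93% lower. Of 18 listed primitive endoderm genes 6 were measured, of 20 mesoderm genes 3, of 19 neuroectoderm genes 7, of 21 trophectoderm and trophoblast genes 11 and of 36 HOX genes 1. Called members were Nefl and Stmn2 (neuroectoderm), Cdx1 (mesoderm) and Bmp4 (trophectoderm), all higher. The measured HOX gene, Hoxb9, was at 73.3, 23.2 and 28.6 FPKM (-1.62), with overlapping intervals. Its counts were 1518 and 1559.8 in the untreated and VD3 pools, a difference of -0.19, so its FPKM difference is uncertain too. Of 15 measured germline genes Fkbp6 was higher and Dazl, an RNA-binding protein of germ cells, lower, at 6.98, 1.85 and 2.94 FPKM (-1.48), or 0.063 after adjustment.

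The cultures contained feeder fibroblasts, so fibroblast markers were examined. Of 22 listed markers 6 were measured, of which Vim and S100a6 were higher and none was lower (0.633% and 3.93% of all measured genes were). The summed FPKM of the list was 408 in untreated cells, 716.5 with VD3 and 703.9 with both agents. Tagln, of smooth muscle and fibroblasts, was at 105, 190.0 and 116 FPKM, and Thy1 at 7.46, 13.8 and 9.41 FPKM. Fn1, fibronectin, was at 136, 115 and 101 FPKM, and Mmp2, a matrix protease, at 7.86, 5.86 and 8.04 FPKM. Of the defining matrix genes Col3a1 was at 4.19, 3.93 and 0.553 FPKM, from 13.8 and 10.7 counts in the untreated and VD3 pools. Others were at or near 0, with Lum listed at 0 in all 3 pools, Dcn at 0.122, 0.138 and 0.0453 FPKM and Col1a1 at 0.630, 0.657 and 0.412 FPKM. What feeder cells contribute to the differences was not tested.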

How the data were processed

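RNA was sequenced from 6 libraries, 2 per group. The deposited tables are per gene and hold 1 column per group. FPKM values with lower and upper bounds, and estimated counts with a variance, were made by the authors; TopHat2 2.1.1, SAMtools 1.5, Cufflinks 2.2.1 and the build mm10 are named per the submitters' processing notes, and for their order, settings and annotation nothing is given in these sources. No source says that strand was used in counting, so reads of a gene and its antisense partner may be mixed.

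Of 62490 loci, 14 without a valid status were left out, and 11771 unnamed loci were kept apart from the 49377 gene names, with FPKM and counts summed over the loci of a name. Differences used a pseudocount of 1 FPKM. A measured gene had at least 5 FPKM and 100 estimated counts in the higher of the untreated and VD3 pools. No p-value was computed, as each group is a single pooled column. GC content and length came from the GENCODE vM21 (GRCm38) transcript with the longest coding sequence; the median over transcripts was used at first, and the change was made after its results were seen. Adjusted differences are residuals of a cubic fit to both. Python 3.11.15, numpy 2.4.6, pandas 2.3.3 and matplotlib 3.10.9 were used, and the calculations were tested on simulated data. Alternatives were other pseudocounts, minimums, folds and interval rules, centring, counts and composition.

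Named genes were the 15 protein-coding genes with the largest difference in each direction among calls with at least 500 counts, the 10 by adjusted difference, up to 4 called or 3 highest members per list, and the receptor, stem cell and feeder markers, not all of which are described. The members and the 55 lists were chosen with earlier results of these data known. Some items among the largest differences, sequences included, are not reported here.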

Additional observations from a re-analysis of the deposited data

How the results depend on the processing

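The 67 higher and 416 lower genes became 21 and 1019 on estimated counts scaled to the total, 12 and 676 after centring, 38 and 270 with a pseudocount of 5 FPKM, 41 and 176 with a minimum of 20 FPKM, 291 and 832 without the interval criterion, 115 and 761 with a count gap of 2 combined standard deviations, 10 and 238 at 3-fold, and 10 and 101 after adjustment for GC content and length. With the median composition over transcripts, added after seeing the data, they were 11 and 122. Higher genes numbered 147 without any filter and 101 without a count minimum. Of 30 such counts 10 stayed within 1.5 times. The sign changed for Tnrc6b (-0.88) and Rps13 (0.022) by count, and for Arhgap5 (0.40), Dazl (0.063) and Uty (0.17) after adjustment; the cause was not tested. Of 48 lists with at least 5 measured members under each of 7 settings 33 kept their side of the median gene under every setting run, and the others, among them the MLL and SET1, core pluripotency, neuroectoderm, germline, antioxidant, p53, cyclin and ESC marker lists, did not. No paired analysis was possible because the libraries of a group share 1 column, and for the same reason no replicate could be left out.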

Other observations

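Genes grouped by the start of their symbol, a grouping chosen after the values were seen, differed in how often they were lower. Over all measured genes 3.93% were. Of 186 measured Zfp genes, which encode zinc finger proteins, 43 were lower (23.1%) and none was higher, with a median difference of -0.48 before and -0.17 after adjustment for GC content and length. Their median GC content was 45.8%, and 11 of the lower genes were still 2-fold lower after adjustment. In untreated, VD3 and VD3 plus MM-401 cells Zfp367 was at 15.9, 3.18 and 5.94 FPKM, with an adjusted difference of -1.84. Zfp518a was at 20.8, 2.67 and 1.75 FPKM, and its adjusted difference of -0.52 was under 2-fold. Of 26 Kif genes, which encode kinesins, 5 were lower (19.2%), and of 30 Cep genes, which encode centrosomal proteins, 4 were lower (13.3%). Of 39 Usp genes, which encode deubiquitinases, 0 were called lower and 8 were 2-fold lower. Of 254 measured loci without a gene name 6 were higher and 11 lower, with a median of 0.36.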
